A study of Mus musculus with 6 samples.

Results

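Droplet libraries of mouse pancreatic islets held a population of small barcodes that were rich in insulin mRNA and almost free of mitochondrial RNA. A barcode is the tag that marks all molecules captured in 1 droplet, and a unique molecular identifier (UMI) marks 1 captured molecule. The barcodes described here had at least 500 genes, 1000 to 5000 UMIs, at most 1% of UMIs on the mitochondrially encoded genes (mt- genes) and at least 10% of UMIs on Ins1 and Ins2 together. The members were thus selected on measured values, namely genes, UMIs, mt- share and insulin share. The rule selected 7002 of the 43445 deposited barcodes, of which 39960 had 500 or more genes. These 7002 barcodes are called the members below, and the question put to them was whether their RNA resembled that of nuclei, of cell fragments or of intact cells.

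The series compared islets of β14-3-3ζ–KO mice (KO) with those of WT mice at 12 to 14 weeks of age on a background given as C57/BL6 in the labels and C57BL/6J in the study's methods, with 3 libraries of each genotype. KO mice carried Ins1-CreThor, which drives Cre from the Ins1 locus in β cells, and floxed alleles of Ywhaz, the gene of 14-3-3ζ, with loxP sites around exon 4. Littermate controls in the study's methods also carried this Cre, and the Cre insertion lies in Ins1, so that Ins1 levels are uncertain in all 6 libraries. Whether each WT mouse of these libraries carried it was not tested, and the Ins1 part of insulin differed among WT libraries, as given below. This limits each comparison of KO with WT. Islets recovered overnight before they were dispersed, dead cells were removed on columns, and whole cells were loaded on the 10x Genomics 3′ v3.1 system.

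A β cell keeps most of its mRNA in the cytoplasm, where the short and stable mRNAs of ribosomal proteins, hormones and respiratory chain subunits are abundant. Long noncoding RNAs such as Malat1, Neat1, Meg3 and Kcnq1ot1 stay in the nucleus, and isolated nuclei are enriched in them and poor in ribosomal protein mRNA and in mt- RNA. A cell whose outer membrane leaks loses cytosolic mRNA while its nucleus and mitochondria remain, and a droplet that holds no cell collects RNA that floats free in the suspension.

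Members were spread very unevenly over the libraries. WT 1 held 13 members, WT 2 held 3752 and WT 3 held 885, while KO 1 held 450, KO 2 held 209 and KO 3 held 1693. As a percentage of barcodes with 500 or more genes, members were 0.437, 35.6 and 16.3% in WT 1 to 3 and 9.51, 2.18 and 25.2% in KO 1 to 3. The groups overlapped: the mean was 17.5% ± 17.6 (SD, n = 3) in WT and 12.3% ± 11.8 (SD, n = 3) in KO, with p = 0.7 (exact permutation, 2-sided). With 3 libraries against 3 such a test cannot go below 0.1. Without WT 2 the difference of KO minus WT turned from −5.14 to 3.95 percentage points.

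The comparison class, called deep barcodes, held the 9255 barcodes with at least 500 genes, over 5000 UMIs, at least 10% insulin UMIs and at most 10% mt- UMIs. Between 939 and 3000 of them came from each library. A second class of 3947 barcodes met the members' limits of genes, UMIs and insulin but had over 1% and up to 10% mt- UMIs (shallow barcodes with more mt- RNA). A further 4811 met them with over 10% (shallow barcodes with high mt- RNA). The limits were shared but not the values. Median insulin of shallow barcodes with more mt- RNA was 29.0, 15.1 and 24.8% in WT and 28.5, 18.3 and 30.1% in KO. That is lower than in members of each library, and median UMIs were higher, for example 3196.5 in WT 2. As a class that should lack islet hormones, 2667 lymphocyte barcodes were taken, with Ptprc, at least 3 UMIs on B and T cell receptor genes and under 10% insulin. Their summed share of Gcg, Sst and Ppy still overlapped that of members, as given below. Deep barcodes included some with at least 3 lymphocyte UMIs, from 30 to 47 in 4 libraries, but 266 of 1353 in WT 2 and 1206 of 3000 in KO 2. Members included 4 such barcodes in WT 2 and 14 in KO 2.

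**Figure D1:**
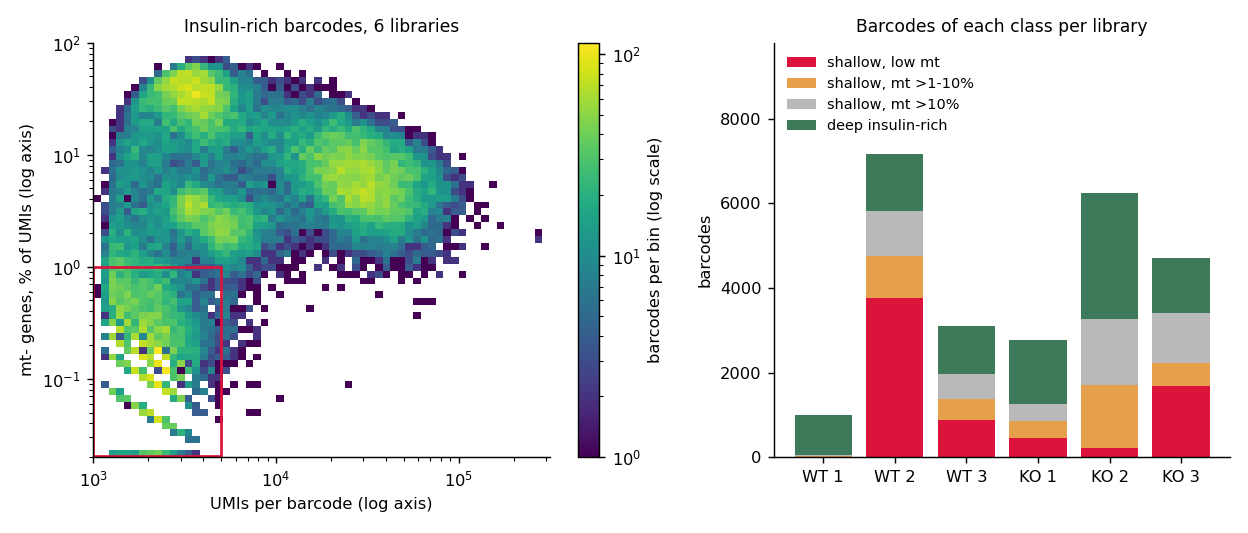
Left, map of insulin-rich barcodes of the 6 libraries (at least 10% insulin UMIs and 500 genes), with UMIs per barcode and the percentage of mt- UMIs on log axes and colour for the number of barcodes per bin. The box marks the rule for the 7002 members, and barcodes with no mt- UMI lie in the lowest row. Right, stacked bars of the number of barcodes of each class in each library, where members range from 13 in WT 1 to 3752 in WT 2.

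The values that chose the members are given as a description. Median UMIs of members were 1649, 2273 and 1500 in WT 1 to 3 and 1404, 3581 and 1941 in KO 1 to 3, whereas medians of deep barcodes ran from 10420 in KO 2 to 43297 in WT 1. Median mt- UMIs of members were 0.576, 0.162 and 0.469% in WT and 0.469, 0.483 and 0.308% in KO, against 3.14 to 5.05% in deep barcodes. In WT 2, 197 of 3752 members held no mt- UMI at all. Median insulin was 33.9, 38.2 and 27.0% of UMIs in WT members and 30.9, 35.0 and 33.8% in KO members, against 27.5 to 39.2% for deep barcodes. The highest insulin share of any member of a library was only 37.5 to 45.0%, while single deep barcodes reached 78.6 to 88.1%.

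Counts on both sides of each limit were of the same order. Within 4500 to 5000 UMIs there were 71 members, and 86 barcodes with as little mt- RNA had over 5000 and up to 5500 UMIs. At 0.8 to 1% mt- UMIs there were 384 members, and 313 shallow barcodes had over 1% and up to 1.2%. There were 302 members with 500 to 520 genes, and 136 barcodes with 480 or more but under 500 genes met the other limits. The gene minimum alone kept out 541 barcodes in all. Few members lay at the insulin limit, with 13 at 10 to 11% and 11 barcodes at 9 to 10%. Of the members' barcode sequences, 94 also occurred in another library and 7 were members in more than 1 library.

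In what follows the 2 insulin genes and the mt- genes were left out of the sums, since the rule used them, and shares are percentages of the remaining UMIs summed over the barcodes of a class in a library. These sums held 5488330 UMIs in WT 2 but only 16447 in WT 1, where values of members rest on 13 barcodes. Shares were compared as the log2 ratio of members to deep barcodes in each library, with a 2-sided exact permutation test that flips signs over 6 libraries. Its smallest p is 0.03125, which after Benjamini-Hochberg adjustment over 24 gene lists was 0.075, so no list passed 0.05. Without WT 1 the smallest p over 5 libraries is 0.0625.

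The members carried the marker genes of mature β cells, none of which passed the call against deep barcodes. Mafa, a transcription factor of mature β cells, was at 121, 1134 and 798 CPM (where 10000 CPM are 1% of the UMIs outside insulin and mt- genes) in WT members and at 692, 736 and 717 CPM in KO members. In deep barcodes Mafa was at 659, 1133 and 1054 CPM in WT and at 904, 1048 and 918 CPM in KO, so that members were at or below them in all libraries but WT 2, where both were alike. In an edgeR quasi-likelihood test with the library as a block and TMM scaling, the log2 fold change of Mafa was −0.10 ± 0.13 (SE, n = 6 libraries, FDR 0.716). Ucn3, a peptide hormone of mature β cells, differed by −0.13 ± 0.11 (FDR 0.538) and Ppp1r1a, a phosphatase inhibitor, by 0.04 ± 0.10 (FDR 0.911). Prss53, a serine protease gene of β cells, differed by −0.38 ± 0.12 (edgeR FDR 0.0382), short of the 1 log2 unit that was required for a call.

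Detection in single barcodes was compared after every barcode was thinned to 1000 UMIs. Mafa was found in 35.2% ± 14.1 (SD, n = 6) of members and in 34.2% ± 5.90 of deep barcodes, with p = 0.781 in the exact permutation test, against 6.27% of lymphocyte barcodes. Malat1 was found in 99.1% of members and 99.5% of deep barcodes, with p = 0.688 in the same exact test. Over the list of 19 β cell identity genes that were tested, none was called, 4 had higher and 15 lower fitted values, and the summed share was 0.309, 0.679 and 0.535% in WT members and 0.487, 0.399 and 0.524% in KO members. The corresponding shares in deep barcodes were 0.647, 0.762 and 0.749% and 0.702, 0.604 and 0.718%, higher than in members in each library.

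RNA that stays in the nucleus took a lower share of members than of deep barcodes, not a higher one. The share of 7 nuclear long noncoding RNAs was 1.52, 1.06 and 1.59% in WT members and 2.13, 1.75 and 1.40% in KO members. In deep barcodes it was 2.81, 2.74 and 2.59% in WT and 2.54, 2.07 and 2.59% in KO. Members were lower than deep barcodes of their own library in 6 of 6, although the highest member value, of KO 1, was just above the lowest deep value, of KO 2. The mean log2 ratio was −0.72 ± 0.43 (SD, n = 6), a ratio of 0.606, with p = 0.03125 in the exact permutation test (adjusted 0.075). The sums give weight to a few barcodes with much nuclear RNA, described below. The median over single barcodes thinned to 1000 UMIs was 0.984% ± 0.181 (SD, n = 6) in members and 2.41% ± 0.306 in deep barcodes, lower in 6 of 6 libraries (exact permutation p = 0.03125, adjusted over 12 measures 0.0417).

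The ratio of the sums turned in one setting. When barcodes with over 1% of UMIs on Gcg, Sst and Ppy were left out of both classes, which kept 4, 320 and 75 WT members and 29, 92 and 104 KO members, the mean log2 ratio was 0.20. Members with at least 5% nuclear long noncoding RNA had less of these hormones than the remaining members in each library. Examples were 1.71 against 3.46% in KO 1 and 1.32 against 2.94% in WT 3, with nuclear long noncoding RNAs also out of the denominator. The part of these members in the change of sign was not tested. The lower share held under each other alternative, from −1.09 against deep barcodes of at most 10000 UMIs to −0.45 when all UMIs formed the denominator.

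Single nuclear RNAs differed in size. Of all genes tested, 2.99% were called between members and deep barcodes (1.89% higher and 1.1% lower in members), where a call needed an edgeR FDR under 0.05 and a change over 1 log2 unit. Of the 7 nuclear long noncoding RNAs, 3 were called, each lower in members, and all 7 had negative values with a median of −0.81, beside 0.01 over all 13836 genes tested. Meg3, an imprinted RNA of chr12:109541001-109571726 (GRCm38, plus strand), fell by 1.16 ± 0.13 (SE, edgeR FDR 4e-07). Kcnq1ot1, the antisense RNA that silences an imprinted cluster, fell by 1.00 ± 0.14 (edgeR FDR 1.78e-05). Mirg, a neighbour of Meg3 in the same imprinted domain at chr12:109729764-109749460, fell by 1.41 ± 0.15 and had no UMI in WT 1 members.

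Malat1, with the most UMIs of these RNAs, lies at chr19:5795690-5802672 on the minus strand. It was at 13529, 9529 and 14029 CPM in WT members and at 19348, 16158 and 12557 CPM in KO members. In deep barcodes Malat1 was at 24903, 23590 and 21634 CPM in WT and at 21706, 17973 and 21892 CPM in KO, above the members of the same library throughout. On the TMM scale its log2 fold change was −0.46 ± 0.17 and did not pass (edgeR FDR 0.0782). Neat1, the scaffold of paraspeckles, differed by −0.81 ± 0.14 and Rian, another RNA of the Meg3 domain, by −0.60 ± 0.10, both without reaching 1 log2 unit, and Firre, a nuclear organizer, by −0.24 ± 0.18 (edgeR FDR 0.446). A further listed RNA, Miat, was not among the genes tested and had no UMI in members.

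Protein-coding transcripts that are known to be retained in the nucleus, among them Luc7l2, a splicing factor, gave the same order without overlap. Their summed share was 0.206, 0.182 and 0.219% in WT members and 0.224, 0.177 and 0.198% in KO members, against 0.297, 0.300 and 0.316% and 0.308, 0.244 and 0.309% in deep barcodes. The ratio was 0.682 and was below 1 in 6 of 6 libraries (exact permutation p = 0.03125, adjusted 0.075). None of the 13 genes tested was called, and all 13 had negative values, with a median of −0.28. Luc7l2 itself differed by −0.48 ± 0.10 (edgeR FDR 0.00147).

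Ribosomal protein mRNA, which is cytosolic, took nearly the same share in both classes. It was 9.97, 11.8 and 8.80% in WT members and 9.25, 15.4 and 10.8% in KO members, against 10.4, 11.1 and 9.86% and 10.4, 15.4 and 10.5% in deep barcodes. The mean log2 ratio was −0.05 ± 0.10 (SD, n = 6), higher in 2 of 6 libraries, with p = 0.344 in the exact permutation test. The sign of this small difference turned with the scale: it was 0.23 on all UMIs and 0.18 with the ribosomal RNA locus described below out of the denominator. On the TMM scale 78 of the 81 ribosomal protein genes tested had positive values with a median of 0.23. None was called, and 18 were higher and 0 lower at an edgeR FDR under 0.05, beside 947 higher and 737 lower of all 13836 genes tested.

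Nuclear-encoded subunits of oxidative phosphorylation took a share of members close to that of deep barcodes, while mt- RNA, by the rule, was low. Their share was 1.90, 2.64 and 1.87% in WT members and 1.87, 2.54 and 2.32% in KO members, and 1.92, 2.16 and 2.002% and 2.03, 2.42 and 2.11% in deep barcodes. The mean log2 ratio was 0.05 ± 0.16, higher in 3 of 6 libraries, with p = 0.562 in the exact permutation test, and it was −0.0045 without WT 2. On the TMM scale 74 of 79 genes had positive values with a median of 0.34. None was called, but 40 were higher and 0 lower at an edgeR FDR under 0.05 with changes under 1 log2 unit, beside 947 higher and 737 lower of all genes. Scaling by totals alone moved the median of all genes from 0.01 to −0.28, so these list medians are to be read against that shift.

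**Figure D2:**
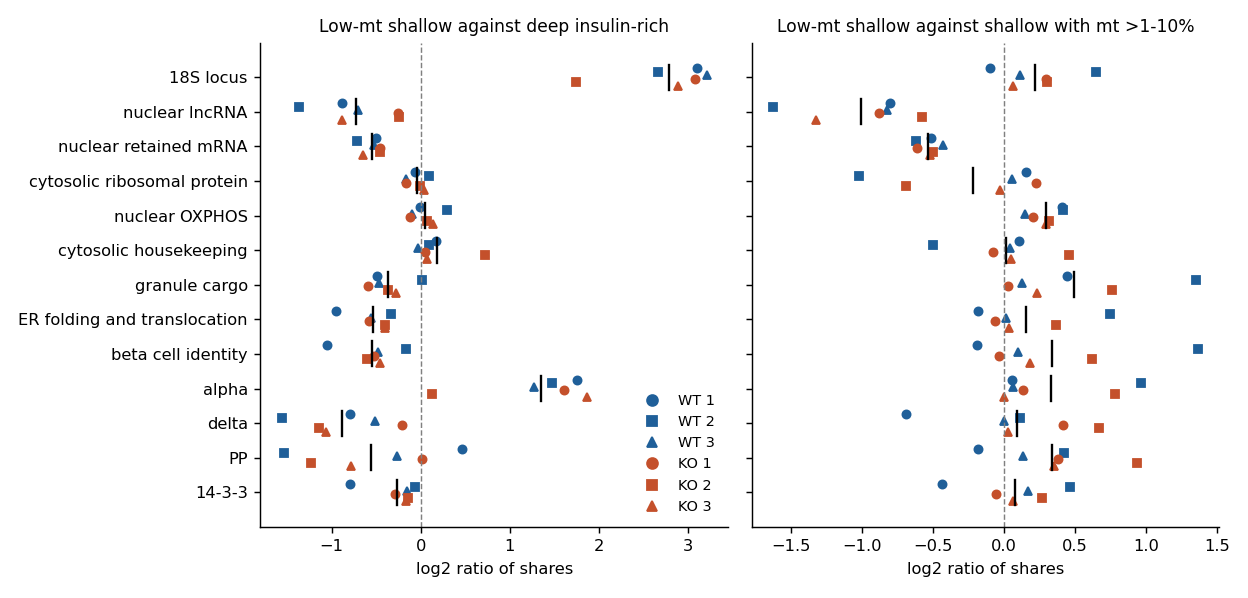
Log2 ratio of the share of 13 gene lists in members to that in deep barcodes (left) and in shallow barcodes with more mt- RNA (right), with 1 point per library, WT in blue, KO in orange, symbols for replicates and a black bar for the mean (18S locus, the ribosomal RNA locus described next). Nuclear long noncoding RNA lies below 0 in 6 of 6 libraries in both panels, and ribosomal protein genes lie around 0 against deep barcodes.

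A pair of transcripts from the ribosomal RNA locus on chromosome 17 took a much larger share of members than of deep barcodes. Gm42418 (ENSMUSG00000098178, Rn18s-rs5 in RefSeq) is annotated as a long noncoding RNA of 1831 bases at chr17:39846958-39848788 on the plus strand (GENCODE vM21, GRCm38), and 67.9% of its bases are shared with annotated ribosomal RNA on the opposite strand. AY036118 (ENSMUSG00000105361) lies within it on the minus strand at chr17:39847113-39848035 and is shared with that ribosomal RNA over its full length. These strands are those of the GENCODE annotation, whereas the RefSeq name Rn18s-rs5 gives Gm42418 itself as an 18S ribosomal RNA sequence. Which of the strands is that of ribosomal RNA was not tested. Ribosomal RNA carries no poly(A) tail and the libraries were primed with oligo(dT). The 100 bases around the most A-rich stretch of each transcript are shown, at chr17:39847127-39847226 and chr17:39847201-39847300. They are read from GENCODE transcripts 5′ to 3′ on the gene's strand. The capitals mark the 20 bases with the most A, 11 of them in Gm42418 and 13 in AY036118. Whether reads were primed at these stretches was not tested.
Gm42418: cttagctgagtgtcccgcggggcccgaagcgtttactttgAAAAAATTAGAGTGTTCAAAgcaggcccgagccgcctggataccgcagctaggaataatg
AY036118: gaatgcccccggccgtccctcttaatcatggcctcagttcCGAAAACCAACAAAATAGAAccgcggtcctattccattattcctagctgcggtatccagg

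Together these 2 transcripts, paired as a list after their values were seen, took 23.3, 9.03 and 18.8% of UMIs in WT members and 19.98, 10.2 and 14.5% in KO members. In deep barcodes they took 2.71, 1.42 and 2.03% in WT and 2.36, 3.06 and 1.96% in KO, so that every member value was above every deep value. The ratio was 6.88 and was above 1 in 6 of 6 libraries. Gm42418 rose by 2.96 ± 0.20 (SE, edgeR FDR 7.13e-11) and AY036118 by 3.15 ± 0.17 (edgeR FDR 9.51e-13). Lars2, the mitochondrial leucyl-tRNA synthetase, encoded in the nucleus at chr9:123366927-123462666, rose by 2.26 ± 0.13 (edgeR FDR 5.22e-12). The sources used here do not give whether the counting used only reads of the sense strand, so reads of these overlapping genes cannot be told apart with certainty.

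Among members the ribosomal RNA locus took more of the smaller barcodes. In the members of 1000 to 2000 UMIs its share was 10.8% in WT 2 and 20.6% in WT 3, and in those of 2000 to 3500 UMIs it was 8.74 and 15.7%. The same order held in KO 3, with 16.2 and 13.45%, and in the other 3 libraries. High shares were not particular to members: shallow barcodes with more mt- RNA held 24.96, 5.76 and 17.4% in WT and 16.3, 8.30 and 13.9% in KO, and the mean of shallow barcodes with high mt- RNA was 16.1%. Lymphocyte barcodes had 4.40% ± 2.08 (SD, n = 6).

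Against the other shallow classes the members were again lower in nuclear RNA, while the ribosomal RNA locus had 1.16 times the share of shallow barcodes with more mt- RNA, higher in 5 of 6 libraries. Nuclear long noncoding RNA was 3.13% ± 0.523 (SD, n = 6) in shallow barcodes with more mt- RNA and 7.55% ± 1.24 in those with high mt- RNA. The ratio of members to these classes was 0.498 and 0.207, below 1 in 6 of 6 libraries each (exact permutation p = 0.03125 each). Retained mRNA followed with ratios of 0.691 and 0.370, also below 1 in 6 of 6. Ribosomal protein genes were 1.80 times as high in members as in shallow barcodes with high mt- RNA, in 6 of 6 libraries, and oxidative phosphorylation genes 1.68 times.

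**Figure D3:**
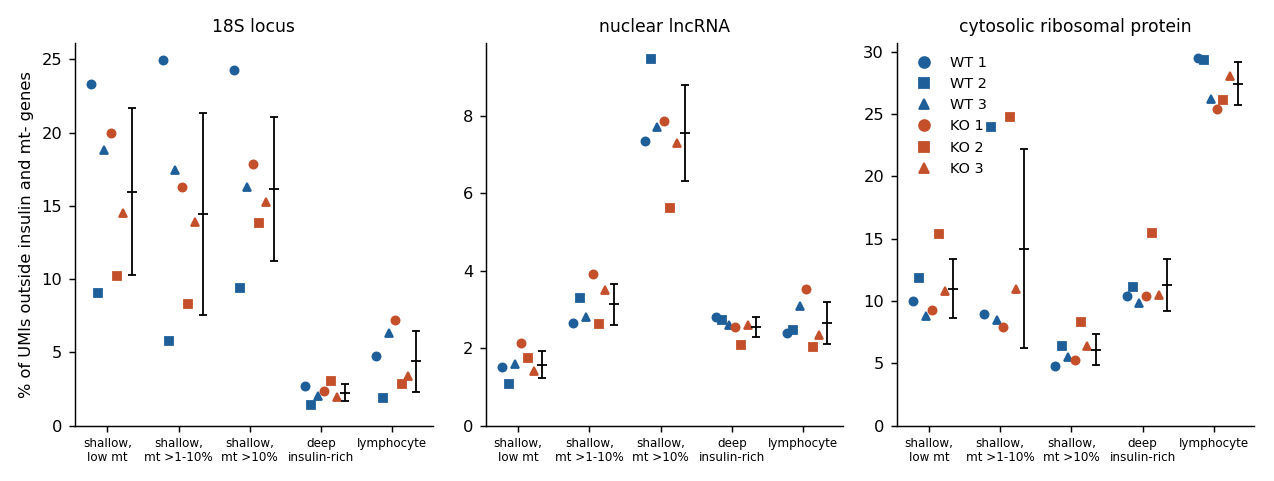
Share of UMIs outside insulin and mt- genes taken by the ribosomal RNA (18S) locus, nuclear long noncoding RNAs and ribosomal protein genes in 5 classes of barcodes, with 1 point per library and a bar for the mean ± SD. Members lie with the other shallow classes for the ribosomal RNA locus and have the lowest mean for nuclear long noncoding RNA. The mean of the latter was 7.55% in shallow barcodes with high mt- RNA, with libraries from 5.61 to 9.47%.

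The secretory apparatus was present in members but at lower shares. Granule cargo genes made up 7.33, 8.42 and 6.51% of UMIs in WT members and 6.07, 5.61 and 7.22% in KO members, against 10.3, 8.32 and 9.001% and 9.16, 7.27 and 8.76% in deep barcodes, lower in all but WT 2. None of the 18 genes tested was called. Iapp, the peptide stored with insulin, differed by −0.06 ± 0.16 (edgeR FDR 0.921), while Chga, a granin, differed by −0.68 ± 0.14 and Pcsk2, a prohormone convertase, by −0.86 ± 0.13 (edgeR FDR 4.48e-05). Genes of protein folding in the endoplasmic reticulum had a ratio of 0.689, below 1 in 6 of 6 libraries (exact permutation p = 0.03125, adjusted 0.075), with Hspa5, the chaperone BiP, at −0.51 ± 0.13 and Hsp90b1, its partner GRP94, at −0.57 ± 0.11.

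Ratios to insulin, which the rule used, are given as a description with no test. For every 1000 insulin UMIs, ribosomal protein genes had 1.43 times and oxidative phosphorylation genes 1.52 times as many UMIs in members as in deep barcodes, and β cell identity genes 1.01 times. Malat1 had 0.938 times as many. Ins1, as a percentage of insulin UMIs, was 17.2, 27.0 and 26.2% in WT members and 15.4, 13.7 and 14.7% in KO members. It was 17.9, 27.5 and 26.7% and 15.6, 15.0 and 15.4% in deep barcodes, slightly higher in each library. In both classes the lowest WT value lay near the KO values, and the other WT values were well above them. Whether the WT mice differed in their Ins1 alleles was not tested.

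Members carried the hormones of other islet cells in the same barcode. At 1000 UMIs each, the percentage of members with Gcg, Sst and Ppy all present was 69.2, 55.9 and 86.9% in WT and 84.7, 58.4 and 70.8% in KO. In deep barcodes it was 3.41, 12.3 and 5.56% in WT and 7.51, 24.5 and 6.32% in KO, and in lymphocyte barcodes 9.03, 9.27 and 8.33% and 22.7, 17.97 and 9.32%. It ranged from 32.9 to 78.3% in shallow barcodes with more mt- RNA, overlapping the members. The lowest member value was above the highest of deep and lymphocyte barcodes, and the mean of 71.0% ± 12.9 (SD, n = 6) exceeded that of deep barcodes, 9.95% ± 7.74, in 6 of 6 libraries (exact permutation p = 0.03125, adjusted over 12 measures 0.0417). Before thinning the median share of these hormones was 1.08 to 2.32% of all UMIs in members, 0.0537 to 0.486% in deep and 0.194 to 0.366% in lymphocyte barcodes. Detection before thinning did not separate members from deep barcodes, which have more UMIs. Gcg was then found in 100% of members and 99.9 to 100% of deep barcodes. Sst was found in 87.2 to 98.0% and 91.7 to 96.9%, and Ppy in 98.0 to 100% and 97.2 to 99.9%.

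Gcg, the glucagon gene of α cells at chr2:62474530-62483650, was at 16320, 17045 and 16155 CPM in WT members and at 22839, 13402 and 20323 CPM in KO members. In deep barcodes Gcg was at 3592, 5726 and 6209 CPM in WT and at 6930, 12158 and 5088 CPM in KO, below every member value. It rose by 1.69 ± 0.18 (edgeR FDR 3.58e-07). Sst, the hormone of δ cells, differed by −0.67 ± 0.16 and Ppy, pancreatic polypeptide, by −0.40 ± 0.19 (edgeR FDR 0.198). The summed share of other hormones was 1.35 times as high in members, higher in 4 of 6 libraries, with p = 0.188 in the exact permutation test. At 1000 UMIs Sst was found in 75.8% of members and 22.9% of deep barcodes, and Ppy in 93.1% and 33.8%.

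Gcg varied less among members than among deep barcodes. The ratio of variance to mean over barcodes thinned to 1000 UMIs, which is 1 for random sampling from a common pool, was 2.94, 1.58 and 11.0 for Gcg in WT members and 3.54, 2.73 and 3.19 in KO members. In deep barcodes it was 63.0, 44.4 and 49.6 in WT and 50.7, 72.3 and 45.3 in KO. Shallow barcodes with more mt- RNA lay between, at 3.65, 28.4 and 20.85 in WT and 30.9, 14.5 and 26.6 in KO. For Ppy the ratio was 1.67 to 3.71 in members but 53.3 in WT 3, against 60.2 to 111 in deep barcodes. For Sst it was 1.26 to 6.63 in members but 18.7 in KO 2, against 29.1 to 41.8 in deep barcodes. For Iapp the ratio was 6.54, 1.37 and 1.71 in WT members and 2.05, 2.93 and 1.34 in KO members, against 4.52 to 7.26 in deep barcodes, with WT 1 as the exception. Malat1 was reversed: it varied more among members, at 10.2 to 49.6, than among deep barcodes, at 6.80 to 9.13.

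**Figure D4:**
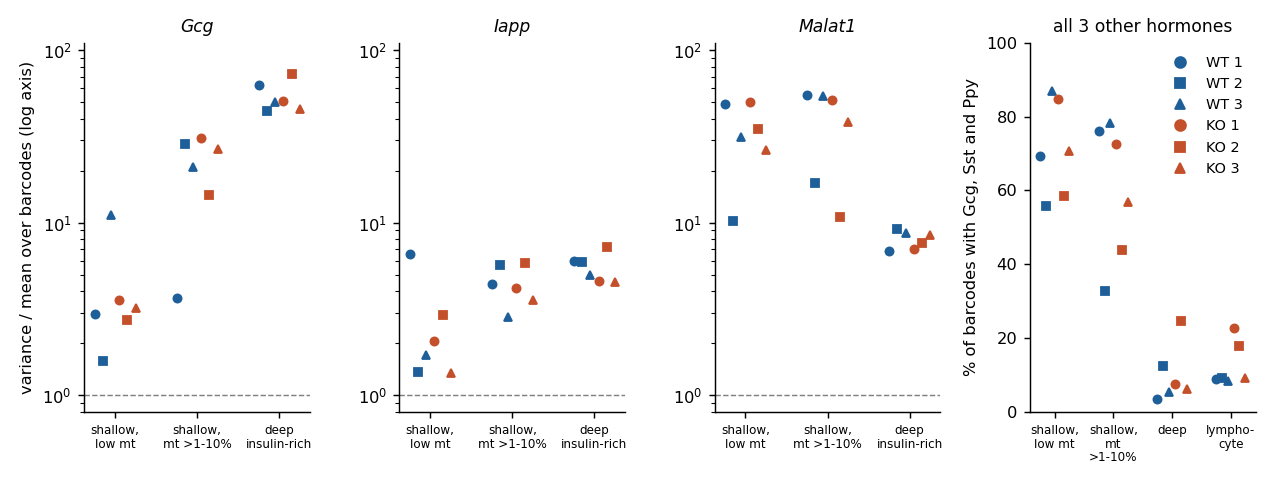
Left, variance divided by mean over barcodes thinned to 1000 UMIs for Gcg, Iapp and Malat1 in members, shallow barcodes with more mt- RNA and deep barcodes (log axis, dashed line at 1, 1 point per library). Right, percentage of thinned barcodes with Gcg, Sst and Ppy all present, which was 55.9 to 86.9% in members and at most 24.5% in deep and lymphocyte barcodes.

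Gcg per insulin UMI was higher in the 3 shallow classes than in deep barcodes. There were 33.2, 28.2 and 42.2 Gcg UMIs for every 1000 insulin UMIs in WT members and 56.1, 26.5 and 41.0 in KO members, and 3.79, 8.84 and 9.13 and 9.86, 20.1 and 7.497 in deep barcodes. Shallow barcodes with more mt- RNA had 28.4 to 58.1 and those with high mt- RNA 36.3 to 76.4. Members had 4.18 times the deep value and 0.834 times that of shallow barcodes with more mt- RNA. They had 0.204 times the value of lymphocyte barcodes, higher in 1 of 6 libraries, where insulin was under 10% by the choice of that class.

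A small part of the members did not follow the others. In 107 of 7002 members nuclear long noncoding RNA took at least 5% of UMIs outside insulin and mt- genes, and in 72 at least 10%. These were found after the values were seen and get no test. There were 1, 14 and 22 of them in WT 1 to 3 and 24, 17 and 29 in KO 1 to 3, which is 0.373% of members in WT 2 and up to 8.13% in KO 2. The next shares of retained mRNA and ribosomal protein genes also leave nuclear long noncoding RNAs out of the denominator. Their retained mRNA share was 0.697, 0.811 and 0.832% in WT and 0.782, 0.543 and 0.861% in KO, against 0.152 to 0.199% in the remaining members. Ribosomal protein genes took 2.56, 6.72 and 5.63% in WT and 4.83, 8.28 and 6.54% in KO, against 9.08 to 16.2%. Neither list chose these barcodes, and for both their values did not overlap those of the remaining members. At least 5% was also reached by 2.83 to 12.4% of deep barcodes, 4.76 to 18.4% of shallow barcodes with more mt- RNA and up to 66.4% of those with high mt- RNA.

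**Figure D5:**
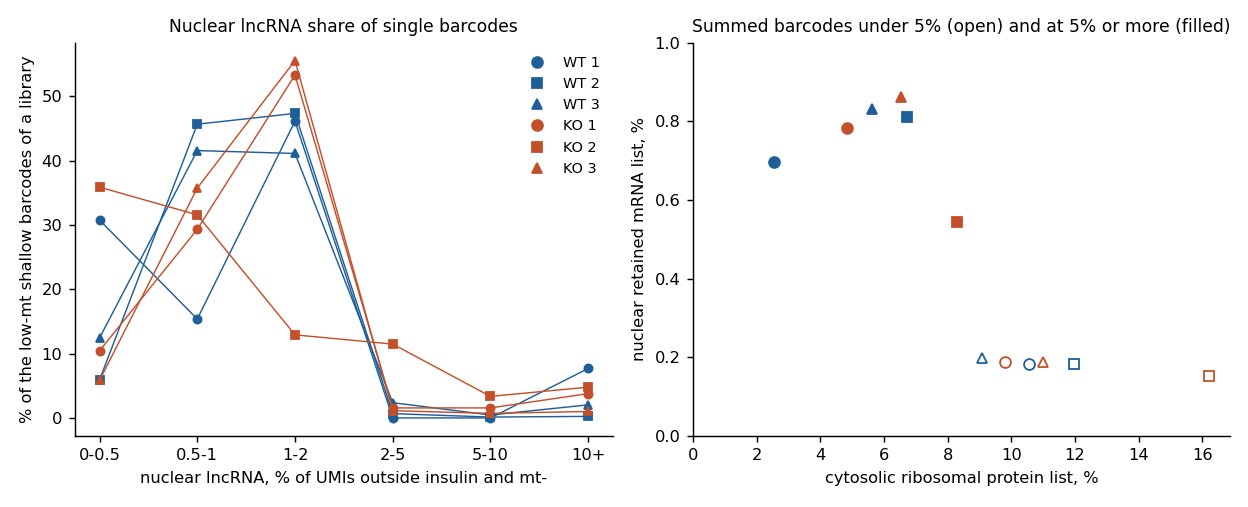
Left, percentage of the members of each library in bins of nuclear long noncoding RNA share, with a main peak at low shares and few members at 10% or more. Right, share of retained mRNA and of ribosomal protein genes in the summed members under 5% (open symbols) and at 5% or more (filled symbols) in each library. Nuclear long noncoding RNAs are also left out of the denominator in the right panel.

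Of all 13836 genes tested, 262 (1.89%) were called higher and 152 (1.1%) lower in members than in deep barcodes. Markers of other cells were among the largest differences. All 10 exocrine acinar genes tested were called higher in members, with a median of 4.44. All 4 hemoglobin genes were also called higher, with a median of 4.22, but few barcodes held these UMIs. Barcodes of over 1% hemoglobin, 5 members in WT 2, 11 in KO 2 and 12 in KO 3, held 4904 of 4961, 8914 of 8928 and 9391 of 9452 hemoglobin UMIs of the members of their library, and members of the other 3 libraries held 4 to 13 each. The acinar share of members was 0.0607, 0.00697 and 1.13% in WT and 0.0926, 0.136 and 0.146% in KO. In deep barcodes it was 0.110, 0.00178 and 0.00773% and 0.00596, 0.0215 and 0.0111%, so WT 1 was the exception. Pnlip, pancreatic lipase, rose by 4.56 ± 0.55 and Clps, its cofactor colipase, by 4.44 ± 0.47, and without WT 3 the values were 3.34 and 3.46. Without KO 2 Pnlip was at 5.17. Hbb-bs, a β-globin, rose by 4.25 ± 0.70 (edgeR FDR 0.000141), was at 3.12 without KO 3 and at 4.92 without WT 2, with 0.0243, 0.0903 and 0.000371% of UMIs on hemoglobin in WT members and 0.00271, 1.84 and 0.401% in KO members.

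Of macrophage genes, 4 of 8 were called higher, and 5 of 6 B cell genes were called lower, beside 1.89% higher and 1.1% lower of all genes tested. C1qb, a complement subunit of macrophages, rose by 1.55 ± 0.21 and Lyz2, lysozyme, by 2.24 ± 0.18. Lgals3, a galectin of macrophages and other cells, rose by 3.11 ± 0.17 and Apoe, a lipid carrier, by 1.66 ± 0.17. Igkc, Ighm and Cd79a, genes of the B cell receptor, fell by 1.62 ± 0.21, 1.58 ± 0.19 and 1.38 ± 0.17. With barcodes of over 1% hemoglobin or at least 3 lymphocyte UMIs left out of both classes, the 3 values were 2.01, 2.10 and 0.77, Hbb-bs was at 1.96, and 612 genes were called. This setting removes 2 kinds of barcodes at once and one of them by genes of B cells, Cd79a included, so these values are no test of the lymphocyte barcodes. In KO 2 this removed 25 of 209 members, 12.0%, and the part of these barcodes in the other calls was not tested.

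Among genes of wide expression, Tmsb4x, an actin-binding peptide, rose by 1.40 ± 0.14 and Fth1, the ferritin heavy chain, by 1.36 ± 0.14. Egr1, an immediate early gene, fell by 1.04 ± 0.11. Ttr, the transthyretin made by α cells, differed by 0.78 ± 0.14 (edgeR FDR 0.000567). Protein-coding genes were called higher in 250 and lower in 79 of 12653 cases, and long noncoding genes higher in 12 and lower in 69 of 1164, which is 5.93% lower beside 1.1% of all genes.

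The members were also set against smaller classes of deep barcodes. Against the 266 barcodes with over 5000 UMIs and at most 1% mt- UMIs, whose median was 5971.5 UMIs, 39 genes were called, 11 higher and 28 lower, of 4798 tested, with only 7 to 33 barcodes of that class in each library but KO 2. Against deep barcodes of at most 10000 UMIs it was 104 genes, 15 higher and 89 lower, of 6595 tested. These counts are not comparable with the 414 above, since fewer barcodes and genes entered, and thinning the deep sums to the depth of the members gave 71. In the first of these comparisons Meg3, Kcnq1ot1, Neat1 and Rian had positive values of 0.35, 0.39, 0.52 and 0.18, while the share of nuclear long noncoding RNA remained lower in members at −0.53.

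Against shallow barcodes with more mt- RNA, 2.49% of 7989 genes were called, 0.0876% higher and 2.4% lower in members. The 3 hemoglobin genes tested were called higher, with the members' hemoglobin UMIs almost wholly in the few barcodes given above, and the 4 B cell genes tested were called lower. In this class 573 of 992 barcodes in WT 2 and 1114 of 1500 in KO 2 had at least 3 lymphocyte UMIs, and ribosomal protein genes took 24.0 and 24.8% of UMIs there but 7.92 to 11.0% in the other 4 libraries. Their share in members was 0.860 times as high, with a ratio above 1 in 3 of 6 libraries (exact permutation p = 0.469). None of the 7 nuclear long noncoding RNAs was called, all with negative values and a median of −0.47. Oxidative phosphorylation genes had 1.23 times and granule cargo genes 1.404 times the share, each higher in 6 of 6 libraries. The log2 ratio of granule cargo ran from 0.026 to 1.35 over the libraries. Granule cargo of shallow barcodes with more mt- RNA was 3.42% in WT 2 and 3.41% in KO 2, against 5.55 to 6.36% in the other 4 libraries. These percentages also leave nuclear long noncoding RNAs out of the denominator.

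The targeted gene was lower in KO than in WT members. Ywhaz, at chr15:36770770-36796929 on the minus strand, was at 121, 251 and 234 CPM in WT members and at 68.8, 84.5 and 45.8 CPM in KO members. The groups did not overlap on this scale, although the WT 1 value rests on 2 UMIs. Of all 8179 genes tested, 7.76% did not overlap between KO and WT members on the TMM scale. In deep barcodes Ywhaz was at 262, 305 and 289 CPM in WT and at 48.5, 93.1 and 49.5 CPM in KO. Its log2 difference of KO from WT in members was −1.70 ± 0.31 and did not pass the adjustment over all genes (edgeR FDR 0.219). The difference of this effect from that in deep barcodes was 0.39 ± 0.24 in the genotype by class term (edgeR FDR 1.0). Counts at 3′ ends follow the amount of transcript and do not show the deleted exon itself.

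Across all genes 0% of 8179 were called between KO and WT members in edgeR, with 185 at an unadjusted p under 0.05 and none called in DESeq2, which had 14 at that level. The lowest p of the tests of list shares that 3 against 3 allow is 0.1. Nuclear long noncoding RNA was 1.39% ± 0.285 (SD, n = 3) in WT and 1.76% ± 0.362 in KO (exact permutation p = 0.3), and ribosomal protein genes 10.2% ± 1.52 and 11.8% ± 3.18 (exact permutation p = 0.6). The genotype effect differed between members and deep barcodes in 0.419% of 13836 genes in edgeR, 0.361% with a higher and 0.0578% with a lower value in members, and in none in DESeq2, with 576 and 66 genes at an unadjusted p under 0.05. The p-values measure the spread between libraries of single mice, with 3 of each genotype.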

How the data were processed

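Per the labels, the authors made 6 single-cell libraries and processed them with Cell Ranger 6.0.2, Seurat and mm10 (submitters' processing notes). The deposited files hold UMI counts of 32285 genes for 4400 to 10722 barcodes per library, 74083947 to 98294915 UMIs in all. Whether intronic reads were counted is not given in the sources used here, and introns were not analysed here. Members and gene lists were chosen with earlier results of these data known. Counts were summed per library and class without Ins1, Ins2 and mt- genes and tested with edgeR 4.0.16 (R 4.3.3, TMM, library as block, filterByExpr). A call needed FDR under 0.05 and a log2 fold change over 1 (over 0.1 for KO against WT, none for genotype by class). DESeq2 1.42.0 was an alternative. Shares took a pseudocount of 0.5 UMI and exact 2-sided permutation tests (scipy 1.17.1). Barcodes are not replicates, no doublet caller was run, and counts of few UMIs carry counting error besides. Named genes were up to 12 highest and up to 12 lowest calls of at least 100 CPM with 1 sign in all libraries. Only 12 higher and 3 lower genes met this. Also named were the 4 most abundant of each list, the nuclear and marker lists, 14-3-3 genes and up to 10 genes of the genotype tests. A part of the named genes is described. Scripts were tested on simulated data. Symbols were matched to GENCODE vM21 for 32158 genes.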

Additional observations from a re-analysis of the deposited data

Results flagged for a closer look

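For 10 genes, those with the lowest p in the term, the KO-minus-WT effect in members differed from that in deep barcodes (edgeR FDR 4.32e-07 to 0.000445). The member effect exceeded the deep effect by 2.11 log2 units for Igfbp5, 4.29 for Traf1, 2.80 for Epsti1, 2.51 for Lsp1, 3.14 for Ccl5, 2.40 for Trbc2, 3.06 for Ccr7, 1.65 for Vim, 2.05 for Srgn and 2.26 for Mgp. Several of these genes are known from immune cells, and KO 2, where 14 of 209 members and 1206 of 3000 deep barcodes had at least 3 lymphocyte UMIs, held most of them: Traf1 was at 283, Epsti1 at 247, Lsp1 at 280, Trbc2 at 200 and Ccr7 at 231 CPM on the TMM scale in its members. Igfbp5 was high in KO 1 and KO 3 members instead, at 125 and 280 CPM, and at 21.8 CPM in KO 2. The part of these barcodes in the 10 differences was not tested, and DESeq2 called none of the 13836 genes.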

How the results depend on the processing

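Of the values recomputed for whole comparisons, 124 kept their direction and side of the threshold or stayed within 1.5 times the count, 36 moved further, 12 changed sign and 9 came to pass the threshold. For single genes 761 kept both, 32 lost the threshold, 9 came to pass it and 43 changed sign. With barcodes of over 1% other hormones left out, the log2 ratio of nuclear long noncoding RNA was 0.20, that of ribosomal protein genes 0.018 and that of oxidative phosphorylation genes −0.066. The ribosomal protein ratio was 0.031 with no mt- limit on deep barcodes, 0.053 without hemoglobin and lymphocyte barcodes, 0.23 on all UMIs and 0.18 without the ribosomal RNA locus. The oxidative phosphorylation ratio was −0.26 against deep barcodes of at most 1% mt- UMIs and ran from −0.0045 to 0.078 when single libraries were left out. The KO minus WT difference in the share of members ran from −13.65 to 3.95 percentage points. The causes were not tested, and WT 1, with 13 members, limits what its values can show. Settings without hemoglobin and lymphocyte barcodes or without the ribosomal RNA locus were chosen after seeing the data.

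Genes called between members and deep barcodes numbered 39 against deep barcodes of at most 1% mt- UMIs, 104 against those of at most 10000 UMIs, 653 under total scaling, 206 with DESeq2, 71 after thinning, and 315 to 542 without single libraries. Under total scaling 206 were higher and 447 lower, against 262 and 152. Against shallow barcodes with more mt- RNA they numbered 99 at up to 3000 UMIs, 25 at 20% insulin, 123 without other hormones, 982 with no filter, and 93 to 357 without single libraries. Between KO and WT members they numbered 15 at up to 3000 UMIs, 32 at up to 0.5% mt- UMIs, 4 at 20% insulin, 1 without other hormones, 5 under total scaling, 151 with no filter, and 0 to 99 without single libraries. For genotype by class they numbered 1 without other hormones, 0 against deep barcodes of at most 1% mt- UMIs, 1 against those of at most 10000 UMIs, 32 with RLE, 35 under total scaling, 0 with DESeq2, 103 with no filter, 17 after thinning, and 24 to 196 without single libraries (196 without WT 3).

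With the replicate number as a block, 37 genes were called between KO and WT members, 36 higher and 1 lower, and Ywhaz was at −1.65 (edgeR FDR 0.00202). Deviations of same-numbered WT and KO libraries correlated at −0.02, −0.04 and 0.04 over 8179 genes. These values cannot decide whether the numbers pair the mice, because sums over few members carry counting error, most of all in WT 1. The block is therefore given only here. Ywhaz in members also passed the threshold at up to 3000 UMIs (−2.003), up to 0.5% mt- UMIs (−1.86), 20% insulin (−1.86), total scaling (−1.85) and no filter (−1.75), and ran from −2.01 to −1.37 without single libraries. Its genotype by class value was −0.23 against deep barcodes of at most 1% mt- UMIs and −0.26 against those of at most 10000 UMIs.

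Single genes changed sign as follows. Against deep barcodes of at most 1% mt- UMIs, Hbb-bs was −0.17, Meg3 0.35, Kcnq1ot1 0.39, Neat1 0.52, Rian 0.18, Atp5e −0.27, Mafa 0.55, Tpt1 −0.50, Ttr −0.64, Sst 1.99, Ppy 1.71, C1qb −0.054, Hba-a1 −1.06, Ywhaz −0.21 and Ppp1r1a −0.35. Against those of at most 10000 UMIs, Iapp was 0.35, Mafa 0.29, Tpt1 −0.16, Sst 0.52, Ppy 0.24, Ywhaz −0.42, Ucn3 0.41 and Prss53 0.22. Without other hormones, Malat1 was 0.32, Firre 0.43, Atp5e −0.18, Sst 1.68, Ppy 1.89 and Ppp1r1a −0.63. Without hemoglobin and lymphocyte barcodes, Igkc was 2.01, Ighm 2.10, Cd79a 0.77 and Ppp1r1a −0.018. Under total scaling Ywhaz was −0.16 and Ppp1r1a −0.25, Iapp was 0.013 with no mt- limit and 0.062 after thinning, Ppy was 0.11 at 20% insulin, and Ppp1r1a was −0.056 at up to 3000 UMIs and −0.042 with no filter. Without single libraries Iapp ran from −0.15 (WT 2) to 0.069 (WT 1), Firre from −0.45 (WT 3) to 0.13 (WT 2) and Ppp1r1a from −0.065 (WT 2) to 0.070 (KO 1).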

Other observations

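Among protein-coding genes of at least 10 CPM, the median difference between members and deep barcodes fell with gene length. Of the 3010 genes with the shortest span, whose median was 7357 bases, 76 (2.52%) were called higher and 15 (0.498%) lower in members. This stands beside 1.89% higher and 1.1% lower of all genes tested. Their median log2 fold change was 0.10. In the middle group, at 25887 bases, 15 were higher and 3 lower, with a median of 0.03. Of the 3009 with the longest span, at 86464 bases, 8 were higher and 5 lower, with a median of −0.05. By transcript length the medians were 0.08 for the shortest and −0.03 for the longest group. These genes are not independent, and no test was made.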
